A study of Mus musculus with 30 samples.

Results

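Freshly isolated CD8 T cells were compared with freshly isolated CD4 T cells of the mouse spleen, on 3 arrays each, chosen by their titles from 30 arrays in 10 groups of 3. The other groups were fresh B cells, B cells given anti-IgM and IL-4, and CD4 and CD8 cells cultured with IL-2, IL-2/IL-4 or IL-2/IL-12. All 10 groups entered the fit that gave the spread. The donors were C57Bl/6 mice, all male and between 6 and 10 weeks of age, and the fresh cells had not been placed in culture. Both fresh T-cell groups share this strain, sex, age and organ, no allele or transgene is named, and the longer description of these arrays mentions B cells as well as the subset. All 746 probe sets of an Affymetrix array made to order for glycan-related genes were compared, and they hold 375 named genes.

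CD4 T cells read peptides on class II MHC molecules and give help to other cells through cytokines and ligands such as CD40L, whereas CD8 T cells read peptides on class I MHC and can kill the cells that display them. Unstimulated T cells circulate between blood and lymphoid organs under the control of chemokine receptors and integrins, and their surface glycans, with the sialic acid that caps them, are ligands for selectins, Siglecs and galectins. A subset difference in fresh cells can therefore concern adhesion and homing, soluble signals, or the enzymes that build glycans, and the array carries genes of each kind. The question here is which of them differ between the subsets before culture, and whether the same difference is seen after culture with cytokines.

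Values are the intensities the authors deposited, called signals here, and differences are CD8 minus CD4 on the scale of log2(signal + 16), which understates the changes of dim genes. A probe set passed when its limma adjusted p was under 0.05, and errors of differences are standard errors (SE). Both rest on a spread that the fit shares over all 30 arrays in 10 groups, cultured cells and B cells included. They do not give the spread of the 6 fresh T-cell arrays alone, and n counts the arrays compared. The median signal of an array lay between 147.85 and 204.2 in fresh CD4 cells and between 132.2 and 187.9 in fresh CD8 cells, and correlations of log2 signals among the 6 arrays ran from 0.809 to 0.925. The fresh CD4 array with letter C stood apart: its 3'/5' signal ratio of the beta-actin control was 7.62, against 1.16 and 1.08 on the other CD4 arrays and 1.03 to 1.62 on the CD8 arrays. For Gapdh its ratio was 4.97, against 1.04 to 1.62 on the other 5 arrays. Between the groups neither ratio differed by an exact permutation test (two-sided p = 0.6 and p = 0.3), but 3 against 3 arrays cannot give a p below 0.1. That array also came from another chip lot and scan period than the other 5. Results of the named genes that passed, and of some others, are therefore given with and without it. Where no array is said to be left out, it is included. In bulk samples, fewer cells of a type and less RNA per cell cannot be told apart.

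The labels could be checked against general lymphocyte genes but not against the coreceptors, since Cd4, Cd8a, Cd8b1 and the Cd3 chains were not analysed here. Il7r, the IL-7 receptor chain carried by resting T cells, had signals of 7727.6, 7108.5 and 5289.9 in CD4 cells and 7737.4, 10069.3 and 7430.6 in CD8 cells, against a mean of 258 in fresh B cells. Cd2, an adhesion receptor of T cells, was at 6878.2, 7010.6 and 1939.5 in CD4 cells and at 5155.2, 6191.5 and 4032.9 in CD8 cells. Its value of 1939.5 on the CD4 array with letter C lay inside the range of the fresh B-cell arrays, 1552.8 to 3003.2. The summed signal of 4 B-cell markers (Cd72, Cxcr5, Cd22 and Fcer2a) was 2012.9 to 2785.9 in CD4 and 1236.8 to 3190.8 in CD8 arrays, against 20352.7 to 25171.2 in fresh B cells. Both T-cell groups thus lay far below B cells on these markers and overlapped each other.

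In all, 12 of 746 probe sets (1.61%) passed between the fresh subsets, of which 4 (0.536%) were higher in CD8 cells and 8 (1.07%) lower. Among named genes 5 of 375 (1.33%) passed: Itgae and Klrd1 were higher in CD8 cells (0.533%), and Fasl, Ccr8 and Cxcl10 were lower (0.8%). The other 7 probe sets that passed carry no gene name here. The median difference over all probe sets was -0.08, and after each array was centred on its median it was 0.11, so small differences depend on a scaling between arrays that is not stated. With that centring 7 probe sets passed, of which 57.1% were higher, against 33.3% of the 12. Without the CD4 array with letter C the count was also 7, of which 2 were higher and 5 lower, and a fit to the 6 fresh T-cell arrays alone, with 4 residual degrees of freedom, passed 0 probe sets by limma (61 at an unadjusted p under 0.05, against 88, or 11.8%, in the fit to all arrays).

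**Figure D1:**
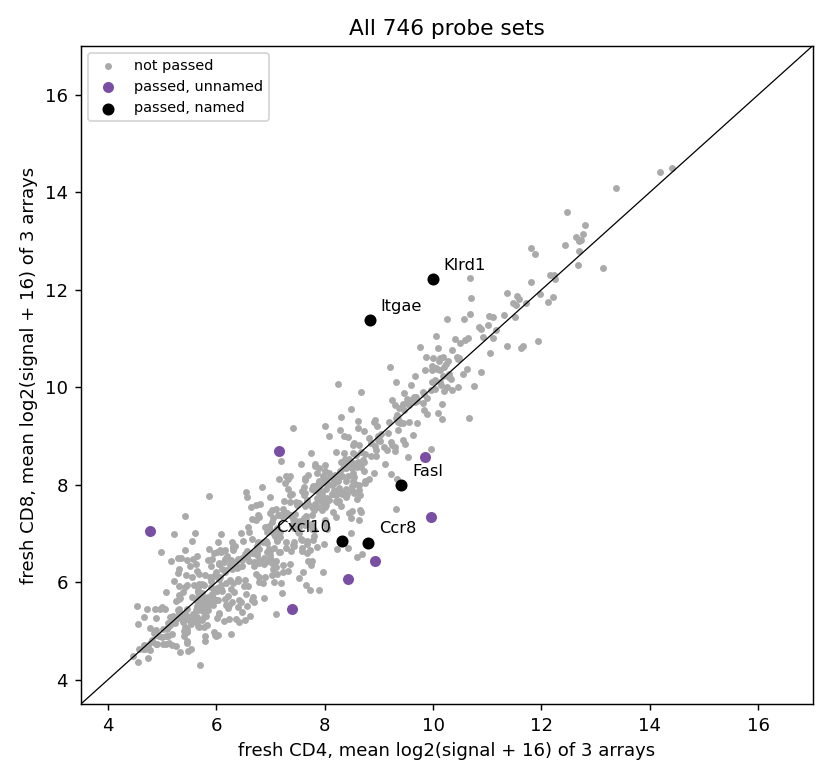
Mean log2(signal + 16) of 3 fresh CD8 arrays (vertical axis) against that of 3 fresh CD4 arrays (horizontal axis) for 746 probe sets, with the line of equality. Grey points did not pass, black points are the 5 named genes that passed, and purple points are the 7 unnamed probe sets that passed; most grey points lie close to the line, and Itgae and Klrd1 stand above it.

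Itgae, the gene of the integrin alpha chain CD103, had the lowest adjusted p of all probe sets. CD103 pairs with the beta-7 chain and binds E-cadherin on epithelial cells, and in the mouse it is carried by many unstimulated CD8 cells and by part of the regulatory CD4 cells. Its signals were 346.5, 460.9 and 537.4 in CD4 cells and 3165.4, 2997.2 and 1980.8 in CD8 cells. Every CD8 array lay well above every CD4 array, and the CD4 values were near those of fresh B cells, 192.5 to 380.2. The difference was 2.55 ± 0.30 (SE, n = 3 against 3; limma adjusted p = 7.13e-06), a 5.85-fold higher level. It was 2.69 without the CD4 array with letter C (limma adjusted p = 2.35e-05). Itgb7, the partner chain, had mean signals of 6205 in CD4 and 7798 in CD8 cells and did not pass (0.48, limma adjusted p = 0.614).

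Klrd1, the gene of CD94, came next among named genes. CD94 pairs with NKG2 chains to form receptors for a class I-like MHC molecule, and it is known from NK cells and from activated or memory CD8 cells. Its signals were 962.6, 1267.4 and 827.2 in CD4 cells and 5148.6, 5672.3 and 3734.8 in CD8 cells, so the groups were well apart. The difference was 2.23 ± 0.43 (SE, n = 3 against 3; limma adjusted p = 0.0056), a 4.7-fold higher level. Without the CD4 array with letter C it was 2.10 (limma adjusted p = 0.0347). Klrd1 is also 1 of 3 measured NK-cell markers, whose summed signal was 3775.3 to 4714.5 in CD4 and 6876.3 to 10106.7 in CD8 arrays. That sum holds Klrd1 itself, so its separation between the groups is not independent of the Klrd1 difference. The other markers of that list did not pass: Il2rb differed by 0.33 (limma adjusted p = 0.89) and Itga2 by -1.29 (limma adjusted p = 0.159), and no marker was at 0. The part of NK cells in the Klrd1 difference was not tested.

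Of the 7 measured genes that are associated with CD8 cells or their memory forms, 2 rose, 1 fell and 4 did not pass. Over all named genes 5 of 375 (1.33%) passed. The list had a median difference of 1.55 against -0.10 over all named genes. The median was 0.90 without the CD4 array with letter C. The gene that fell was Fasl, whose product on cytotoxic cells triggers death through the receptor Fas, so it moved against the name of its list. Ccl5, a chemokine that memory CD8 cells store, had signals of 2075.9, 3239.4 and 647.9 in CD4 cells and 6092.9, 4464.4 and 4169.9 in CD8 cells. All CD8 arrays were higher, and the lowest CD4 value came from the array with letter C. The difference of 1.55 ± 0.52 did not pass (SE, n = 3 against 3; limma adjusted p = 0.137), and it was 0.90 without that array. Another Ccl5 probe set did not pass in the main fit, but did without the CD8 array with letter C (2.18, limma adjusted p = 0.0234). In the fit with 1 value per gene, the mean of the Ccl5 probe sets passed (1.60, limma adjusted p = 0.0368). Xcl1, a chemokine that attracts cross-presenting dendritic cells, had signals of 370.7, 343.8 and 186.8 against 1422.3, 1442.8 and 572.0 and did not pass either (1.82 ± 0.81, limma adjusted p = 0.385), although its groups did not overlap. The chemokine receptor gene Cxcr3 (0.72) and the IL-2 receptor gene Il2rb (0.33) had values above 0 with overlapping groups. Without the CD4 array with letter C they were 0.19 and 0.28.

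**Figure D2:**
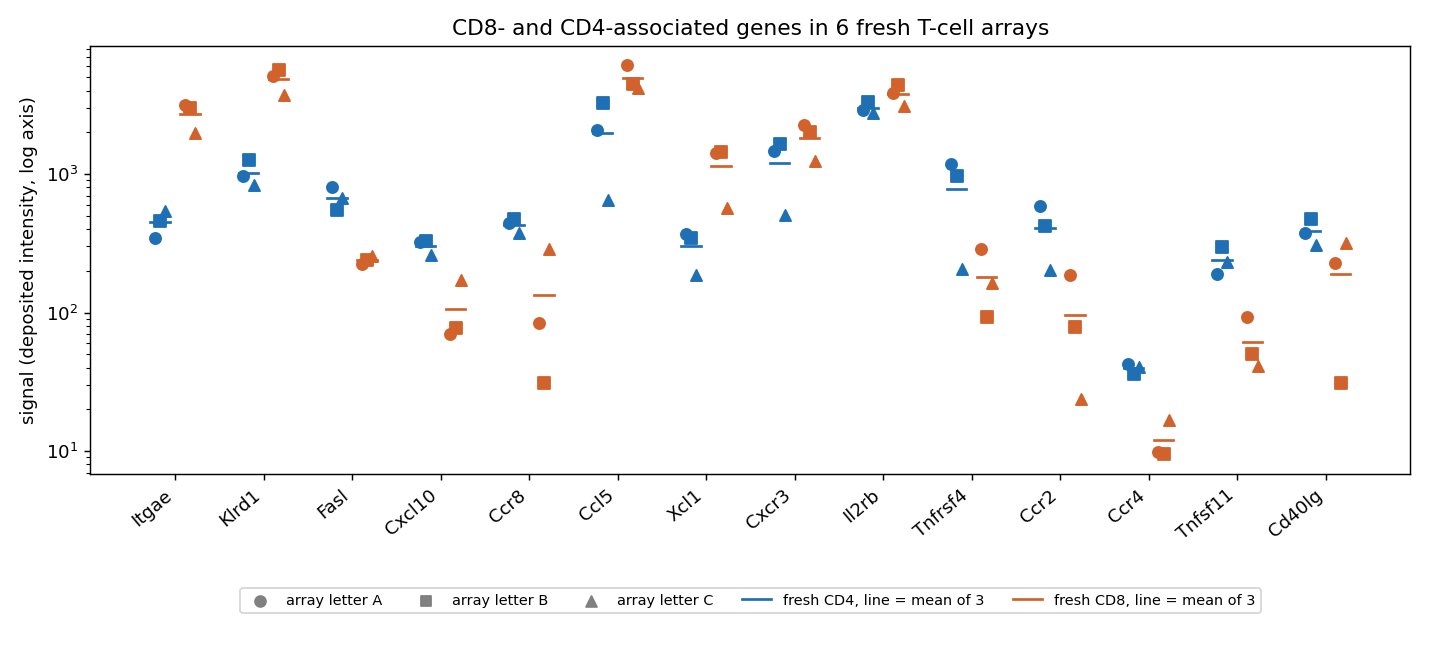
Deposited signal (log axis) of 14 genes on the 3 fresh CD4 arrays (blue) and 3 fresh CD8 arrays (orange), with symbols for the letter in the array's title and lines at the arithmetic mean. Itgae, Klrd1, Fasl, Cxcl10 and Ccr8 passed, and the other 9 genes did not; the CD4 triangle, from the array with letter C, is low for Ccl5, Cxcr3 and Tnfrsf4.

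Among the 3 named genes that fell, Fasl had the most even values. Its signals were 810.7, 551.6 and 666.6 in CD4 cells and 223.5, 241.5 and 258.2 in CD8 cells, and those of fresh B cells were 192.3 to 292.6. The CD8 arrays lay at the level of B cells and all CD4 arrays above it. The difference was -1.41 ± 0.31 (SE, n = 3 against 3; limma adjusted p = 0.0157), so that the CD4 level was 2.67-fold higher. Without the CD4 array with letter C it was -1.42 (limma adjusted p = 0.0438), but without the CD4 array with letter A the adjusted p was 0.0569, and without the CD8 array with letter B it was 0.0611. The receptor gene Fas was at mean signals of 712 and 733 in CD4 and CD8 cells and did not pass (0.09, limma adjusted p = 0.96).

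Ccr8, a chemokine receptor known from Th2 and regulatory CD4 cells, had signals of 444.1, 472.5 and 378.4 in CD4 cells and 83.8, 31.2 and 288.0 in CD8 cells. The CD8 arrays were spread over a wide range and all lay below the CD4 arrays. The difference was -1.98 ± 0.48 (SE, n = 3 against 3; limma adjusted p = 0.0304), so that the CD4 level was 3.96-fold higher. Cxcl10, an interferon-induced chemokine that calls in cells with CXCR3, had signals of 324.5, 331.3 and 258.7 against 70.1, 77.6 and 171.3. It too was lower on every CD8 array, by -1.48 ± 0.36 (SE, n = 3 against 3; limma adjusted p = 0.0304), a 2.78-fold higher CD4 level. For both genes the call was lost when any 1 of the 6 arrays other than the CD8 array with letter C was left out. The adjusted p then reached 0.283 for Ccr8 and 0.193 for Cxcl10, both without the CD8 array with letter B, and without the CD4 array with letter C it was 0.066 and 0.0579. The CD8 array with letter C held the highest CD8 value of both genes, and without it the differences were -2.70 and -1.83.

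The bases before the start of the 3 genes that fell are shown because the genes moved in the same direction; they come from RefSeq promoter windows of the assembly GRCm38.p6, and Itgae and Klrd1 had no window. Each window holds the 250 bases upstream of the gene start, written 5′ to 3′ on the gene's strand: Fasl at chr1:161788496-161788745 (minus strand), Ccr8 at chr9:120091883-120092132 (plus strand) and Cxcl10 at chr5:92348890-92349139 (minus strand). Capitals mark matches to any of 3 motifs searched on both strands.
Fasl: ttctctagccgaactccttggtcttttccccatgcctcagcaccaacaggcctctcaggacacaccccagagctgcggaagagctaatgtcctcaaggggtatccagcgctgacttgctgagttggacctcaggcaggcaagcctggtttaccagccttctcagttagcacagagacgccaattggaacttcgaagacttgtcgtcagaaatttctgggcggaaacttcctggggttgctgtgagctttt
Ccr8: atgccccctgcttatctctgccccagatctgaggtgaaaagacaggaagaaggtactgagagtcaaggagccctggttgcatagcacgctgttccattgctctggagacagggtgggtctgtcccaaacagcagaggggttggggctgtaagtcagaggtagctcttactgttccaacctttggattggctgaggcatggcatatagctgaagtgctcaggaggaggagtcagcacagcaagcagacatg
Cxcl10: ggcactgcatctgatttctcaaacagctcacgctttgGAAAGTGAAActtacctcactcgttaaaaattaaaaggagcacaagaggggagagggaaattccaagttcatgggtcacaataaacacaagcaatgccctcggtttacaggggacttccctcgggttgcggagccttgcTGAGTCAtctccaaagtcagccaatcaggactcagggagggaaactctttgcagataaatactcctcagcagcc
The motifs were the RUNX core TGTGGT, the AP-1 site TGANTCA and a pair of IRF sites, GAAANNGAAA. In the Cxcl10 window 1 IRF pair starts 213 bases before the gene start and 1 AP-1 match starts 74 bases before it, and they do not overlap. Of 32851 RefSeq windows of the same length, 2.98% hold the IRF pair, 6.75% the AP-1 site and 14.05% the RUNX core. These letters are not in the Fasl and Ccr8 windows, so the 3 windows share none of the motifs searched.

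Of 12 measured genes associated with CD4 helper or regulatory cells, 1 fell, Ccr8, none rose and 11 did not pass, and the median difference was -0.85. With the CD4 array with letter C left out, the median was -0.82. Below 0 were the differences of 10 of the 12, and the median over all named genes was itself below 0, at -0.10. After each array was centred on its median, the list median was -0.65 and that of all named genes 0.10. Of all named genes 1.33% passed, so the 1 call is not a result about the list. Tnfrsf4, the costimulatory receptor OX40, was at 1172.5, 972.4 and 206.1 in CD4 cells and at 285.5, 92.5 and 163.6 in CD8 cells. The groups overlapped only through the CD4 array with letter C, and the difference of -1.82 ± 0.51 did not pass (SE, n = 3 against 3; limma adjusted p = 0.0599). Without that array it was -2.59 and passed (limma adjusted p = 0.00396), as it did without the CD8 array with letter A (0.043). Without the CD4 array with letter A (0.214) or B (0.234), or the CD8 array with letter B (0.368) or C (0.132), it did not pass. Tnfsf11, the ligand RANKL, had signals of 189.5 to 297.7 against 41.3 to 93.5, groups that did not overlap, with a difference of -1.75 and a limma adjusted p of 0.137. It passed in 2 of 23 alternative fits, with scan day (-4.03, limma adjusted p = 0.0046) or scan period (-2.51, limma adjusted p = 0.0434) as a block. Cd40lg, the ligand by which helper cells stimulate B cells, overlapped because the CD8 arrays ran from 30.9 to 316.7, and its difference of -1.34 did not pass (limma adjusted p = 0.415). Ccr4, a receptor of Th2 and regulatory cells, was dim in both groups, at 42.3, 36.1 and 40.4 against 9.9, 9.5 and 16.8.

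Among 14 chemokine receptor genes 1 fell, Ccr8, and 13 did not pass, with a median of -0.05. Of all named genes 1.33% passed, with a median of -0.10, so a single call is not a result about a list. Ccr2, a receptor of monocytes and memory T cells, was nearest to the threshold, with 592.8, 421.2 and 203.5 in CD4 and 185.8, 78.4 and 23.9 in CD8 cells (-2.09 ± 0.58, limma adjusted p = 0.0599). A second, dimmer probe set of Ccr2 differed by -0.39, with overlapping groups. Cxcr6, a receptor of memory and tissue T cells, lay on the other side, with 1466.6, 1177.0 and 651.9 against 2287.1, 2692.8 and 1484.9 (1.99-fold higher in CD8 cells, limma adjusted p = 0.208). The lymph node receptor gene Ccr7 (0.36) and the gut receptor gene Ccr9 (0.91) had overlapping groups and did not pass. Of 27 chemokine genes 1 fell, Cxcl10, and the median was -0.12.

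For 20 genes of TNF ligands and their receptors, 1 fell, Fasl, none rose and 19 did not pass, with a median of -0.31. Here too the share over all named genes was 1.33%, with a median of -0.10. The lymphotoxin gene Ltb was bright in both groups, at mean signals of 21776 and 23279, with a difference of 0.10. Among 12 integrin genes Itgae rose and 11 did not pass, with a median of -0.23. The integrin alpha chain Itgav had signals of 134.2, 123.3 and 138.1 in CD4 and 112.2, 11.1 and 31.0 in CD8 cells (-1.43 ± 0.42, limma adjusted p = 0.0768), and another Itgav probe set differed by -0.03. Selplg, the protein that carries the glycan ligand of P-selectin, was among the brightest genes, from 6279.8 to 14010.9 in CD4 and from 15933.9 to 19538.7 in CD8 cells, and did not pass (0.71, limma adjusted p = 0.313).

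No named gene of the lists that build or trim glycans passed between the fresh subsets. By list, 0 of 4 sialyltransferases, 0 of 3 genes of sialic acid supply, 0 of 5 fucosyltransferase genes, 0 of 5 galactosyltransferases, 0 of 5 N-glycan genes, 0 of 3 O-glycan core genes and 0 of 14 sulfation genes did so with limma. At an unadjusted p under 0.05 there were 1, 1, 0, 0, 1, 0 and 1 of them. Over all named genes 1.33% passed and 14.1% had an unadjusted p under 0.05. In the order above, the lists hold 20, 8, 18, 16, 35, 27 and 34 genes, so most of their members were not measured under a name here. Unnamed probe sets, 296 of 746 and 7 of the 12 that passed, were not assigned to any list. An absence of glycan gene differences is therefore not shown. St3gal6, a sialyltransferase that makes selectin ligands, came nearest among the first 6 of these lists. Its signals were 430.1, 344.5 and 408.0 in CD4 cells and 1228.8, 1080.8 and 634.7 in CD8 cells, without overlap, and the difference was 1.23 ± 0.37 (SE, n = 3 against 3; limma adjusted p = 0.0815). In the sulfation list Hs3st1, a heparan sulfate sulfotransferase, was at 141.4, 52.7 and 221.3 against 32.7, 12.3 and 33.3 (-1.75 ± 0.47, limma adjusted p = 0.0584). B4galnt1, the GM2 ganglioside synthase, was bright, with 5866.8, 3631.5 and 2136.6 in CD4 and 8728.1, 8552.0 and 5445.1 in CD8 cells (1.05 ± 0.33, limma adjusted p = 0.0979). Cmah, which turns sialic acid from its acetyl to its glycolyl form, had a difference of 1.21 ± 0.52 (limma adjusted p = 0.354). Without the CD4 array with letter C the differences were 1.26 for St3gal6, -1.35 for Hs3st1, 0.68 for B4galnt1 and 0.61 for Cmah.

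Differences in St8sia1 (0.65), Fut7 (-0.44), Mgat3 (0.34), C1galt1 (0.05), Gcnt1 (-0.02) and Chst1 (-0.64) came with overlapping groups. C1galt1, which makes the core 1 O-glycan, was at 211.7, 227.2 and 212.1 in CD4 and 295.6, 183.7 and 210.4 in CD8 cells. Gcnt1, the core 2 enzyme, was dim in both, from 15.8 to 42.2 and from 22.3 to 38.4, so this array gives little on it. In data simulated to test the fit to all 30 arrays, 24% of 50 probe sets with a true difference of 1 (log2) passed. Of 50 with a true difference of 2, 64% did. A gene that did not pass is therefore not shown to be alike in the subsets.

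**Figure D3:**
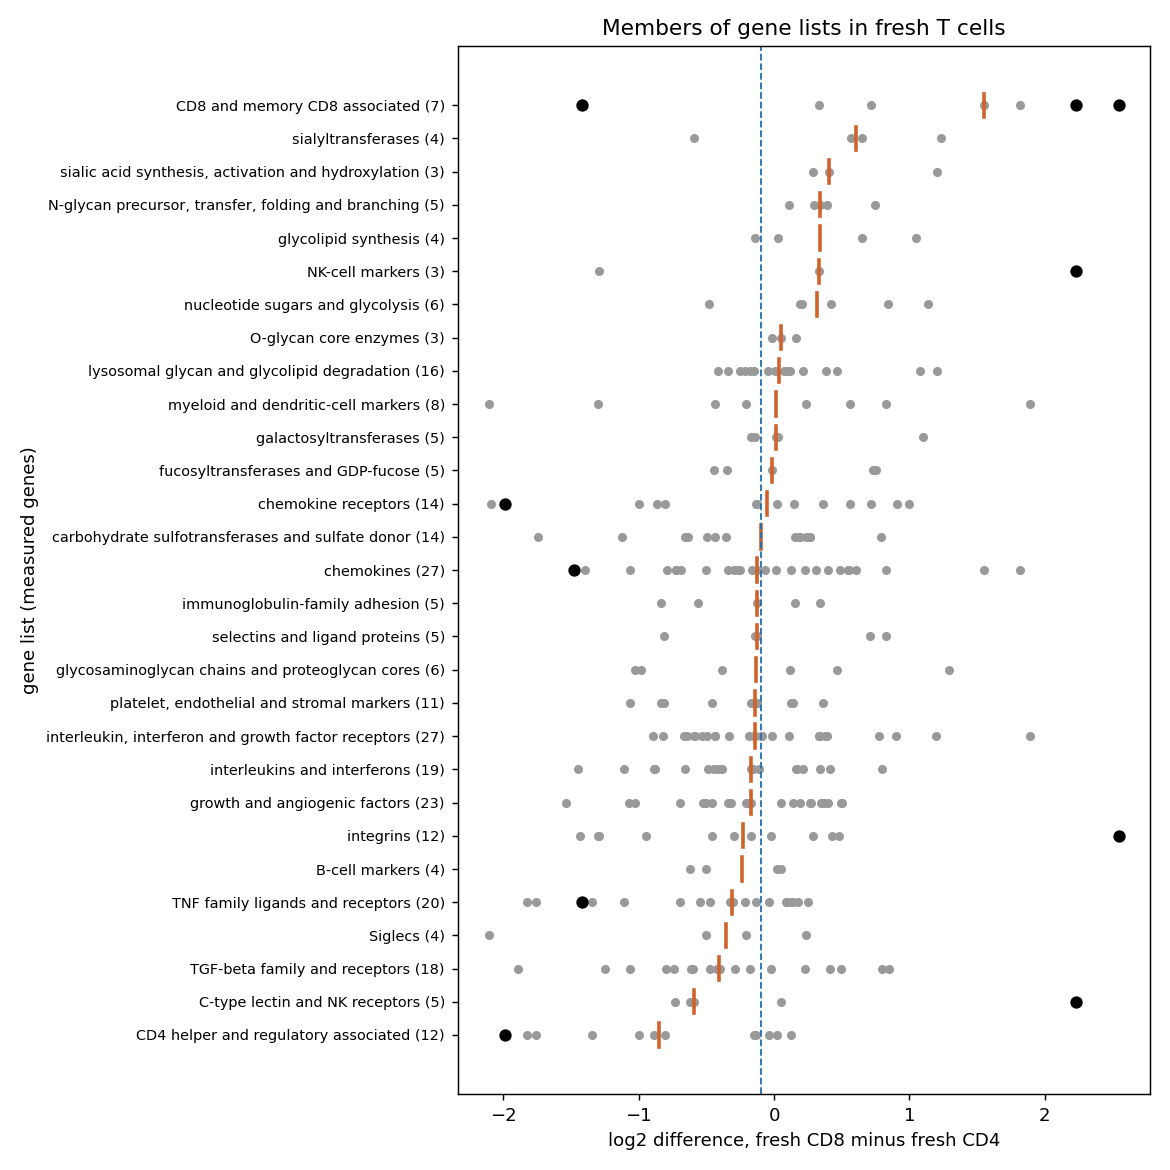
Difference between fresh CD8 and fresh CD4 cells (log2, horizontal axis) of the members of 29 gene lists, with the number of measured genes beside each list. Points are genes, black where they passed, orange bars are list medians and the dashed blue line is the median of all named genes, -0.10; the CD8-associated list has the highest median, 1.55, and the CD4-associated list the lowest, -0.85.

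Markers of other cell types that a spleen preparation can hold were also measured. The summed signal of 11 platelet, endothelial and stromal markers was 3054.2 to 6128.9 in CD4 and 2525.8 to 2917.0 in CD8 arrays, without overlap. Vcam1, 1 of the 11, held much of that sum, so the lack of overlap is not a result about the other stromal markers. The sum of 8 myeloid and dendritic-cell markers was 2733.9 to 3849.9 and 1733.5 to 3053.5, with overlap. None of these 19 markers passed with limma, and none was at 0. At an unadjusted p under 0.05, 1 myeloid marker was higher, 2 were lower, and no stromal marker was past it. Itgax, an integrin of dendritic cells, had signals of 1380.8, 2217.1 and 1355.6 in CD4 and 974.8, 587.6 and 465.2 in CD8 cells, and Siglece, an inhibitory receptor for sialic acid found on myeloid cells, 361.7, 438.9 and 397.6 against 193.6, 53.5 and 45.4. Vcam1, an adhesion molecule of stromal and endothelial cells, ran from 2280.3 to 4987.6 and from 1640.0 to 1944.1. These 3 were picked for their values. Over the lists, the log2 differences of 4 of the 8 myeloid markers lay above 0 and 4 below, with a median of 0.02, and 3 of the 11 stromal markers lay above 0, with a median of -0.14 against -0.10 over all named genes. The part of such cells in the differences of Cxcl10, Ccr2 and Itgav, which they can also express, was not tested.

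Among unnamed probe sets that passed, the largest fall was that of BC017526_at, with 1243.3, 1614.9 and 464.8 in CD4 and 154.8, 327.0 and 56.3 in CD8 cells (-2.62 ± 0.58, limma adjusted p = 0.0161). Fresh B cells had 19.6 to 34.4, below all 6 fresh T-cell arrays. AF054581_at was at 488.7, 412.1 and 513.7 against 90.1, 16.8 and 170.0 (-2.49 ± 0.50, limma adjusted p = 0.00806). On the higher side BC016602_s_at was at 218.7, 112.3 and 82.6 in CD4 and 458.5, 552.8 and 243.4 in CD8 cells (1.52 ± 0.33, limma adjusted p = 0.0157). For the 3 probe sets the groups did not overlap, as was so for all 12 that passed and for 99 of the 746 (13.3%), 32 higher (4.29%) and 67 lower (8.98%). The call of BC017526_at was lost without the CD4 array with letter A (0.0588), B (0.082) or the CD8 array with letter C (0.0952), and that of AF054581_at without the CD8 array with letter B (0.0956). Of the 6 fits that leave out a single array, BC016602_s_at passed in 2, without the CD4 array with letter A (0.00265) and without the CD8 array with letter C (0.00358). Each value in parentheses is a limma adjusted p. S36676_at, which also fell, passed in all 6 of these fits, with limma adjusted p from 0.00147 to 0.0347. It did not pass without both fresh T-cell arrays of letter C. This probe set lies outside the naming rule and was chosen after its values were seen.

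Whether the subset difference of fresh cells is also seen after culture was asked on 9 cultured CD4 and 9 cultured CD8 arrays, none of which is a fresh array. All of these cultures held IL-2 at 4 ng/ml, to which either no other cytokine, IL-4 at 10 ng/ml or IL-12 at 5 ng/ml had been added, and the 3 conditions were averaged per subset. After culture 72 of 746 probe sets (9.65%) passed between the subsets, 25 (3.35%) higher and 47 (6.3%) lower in CD8 cells. Of the 12 that passed in fresh cells, 8 had the same sign after culture and 4 passed again in the same direction. The same-sign share over all probe sets is not given here, so the 8 are not a result by themselves. The difference itself changed between fresh and cultured cells, by the interaction term of the model, in 30 of 746 probe sets (4.02%), 15 (2.01%) each way, 4 of them among the 12. Since the 12 were picked for their fresh difference, which is part of the interaction, these 4 are not a result about the 12.

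Klrd1 and Ccr8 were the named genes that passed in the same direction in both states. Cultured CD4 arrays had Klrd1 signals from 287.4 to 1805.6 (median 711.6) and cultured CD8 arrays from 4908.3 to 9521.9 (median 5745.1), so all 9 CD8 arrays lay above all 9 CD4 arrays. The difference was 3.30 ± 0.25 (limma adjusted p = 7.77e-10) and its change, -1.06 ± 0.49, did not pass the interaction test (limma adjusted p = 0.3). For Ccr8 the cultured CD4 arrays ran from 436.9 to 1721.0 (median 705.3) and the CD8 arrays from 119.2 to 490.0 (median 257.8), a difference of -1.59 ± 0.28 (limma adjusted p = 0.000209). Unnamed BC017526_at differed by -2.71 ± 0.34 after culture (limma adjusted p = 1.86e-06), close to its fresh value.

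Itgae lost its subset difference in culture. Its signals in cultured CD4 arrays were 186.6 to 369.7 (median 299.6) and in cultured CD8 arrays 197.4 to 373.7 (median 258.9), both within the range of fresh B cells or near it. The cultured difference was -0.10 ± 0.17 (limma adjusted p = 0.821), and the change of the difference was 2.65 ± 0.35 (limma adjusted p = 4.57e-05). For Fasl the difference changed as well: cultured CD4 arrays had 636.0 to 1062.6 (median 895.9) and cultured CD8 arrays 733.0 to 2195.5 (median 1049.6). Its cultured difference was 0.27 ± 0.18, and the change was -1.68 ± 0.35 (limma adjusted p = 0.00445). For Cxcl10 the cultured difference was -0.29 ± 0.21 and the change did not pass (limma adjusted p = 0.14).

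By the interaction test, the subset difference also changed with culture for genes that did not pass in fresh cells. Here 3 of them are described, and others are given further below. Ccl5, whose CD8 arrays were the higher ones in fresh cells, ran from 1310.8 to 3567.5 in cultured CD4 and from 477.6 to 1145.1 in cultured CD8 cells, so the cultured CD8 arrays were all lower (-1.64 ± 0.30, limma adjusted p = 0.000318). The change of the difference was 3.20 ± 0.60 (limma adjusted p = 0.00213). Il4, the cytokine of Th2 cells, was dim in all fresh arrays, from 5.9 to 46.0, and after culture was at 82.5 to 2091.2 in CD4 against 4.4 to 73.5 in CD8 cells. Its change was 2.41 ± 0.51 (limma adjusted p = 0.00445). St8sia1, the GD3 ganglioside synthase, was at 43.3 to 136.4 in fresh CD4 and 88.8 to 220.8 in fresh CD8 cells, and at 161.3 to 624.9 and 18.1 to 146.1 after culture. Its change was 2.94 ± 0.57 (limma adjusted p = 0.00272). Xcl1 was higher in CD8 cells after culture, by 4.54 ± 0.47, with all 9 arrays above the CD4 arrays, and its change of -2.73 ± 0.93 did not pass (limma adjusted p = 0.121). A second Xcl1 probe set had a change of -3.27 ± 0.86, which passed (limma adjusted p = 0.0299).

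**Figure D4:**
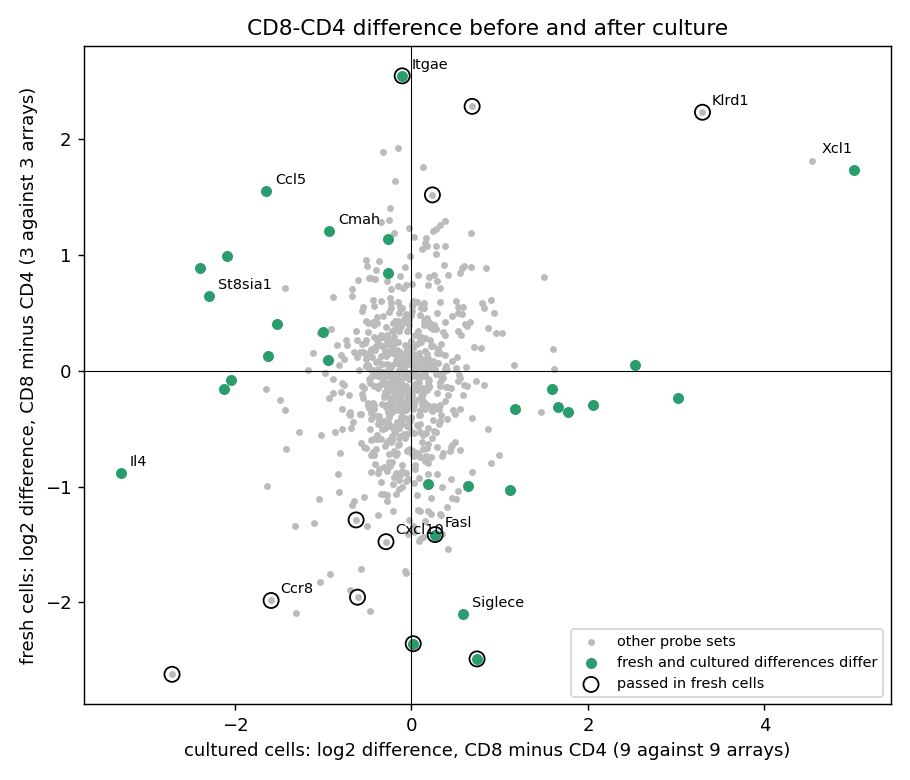
Difference between CD8 and CD4 cells in fresh arrays (vertical axis, log2, 3 against 3) against that in cultured arrays (horizontal axis, log2, 9 against 9) for 746 probe sets. Rings mark the 12 probe sets that passed in fresh cells, and green points the 30 whose fresh and cultured differences differ; Itgae lies near 0 on the horizontal axis, and Klrd1 is high on both.

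Scan day, scan period and chip lot were read from the experiment files. No scan day holds both fresh CD4 and fresh CD8 arrays, and 1 of the scan periods, runs of scan days at most 14 days apart, holds both, with 1 array each. Within that period the difference was 3.13 for Itgae, 2.40 for Klrd1, -1.79 for Fasl, -2.20 for Ccr8 and -1.98 for Cxcl10, the direction of the full comparison in each case. With scan period as a block 9 probe sets passed, Itgae and Klrd1 among them, whereas Fasl (limma adjusted p = 0.0771), Ccr8 (0.101) and Cxcl10 (0.217) lost their calls. With chip lot as a block 11 passed, and Ccr8 (limma adjusted p = 0.0577) and Cxcl10 (0.0733) lost theirs. With scan day as a block, which compares the fresh groups only through other groups, 3 passed: Itgae, Tnfsf11 and an unnamed probe set. Klrd1 (1.53, limma adjusted p = 0.454), Fasl (-1.90, 0.177), Ccr8 (-2.55, 0.321) and Cxcl10 (-0.88, 0.667) did not. Experiment notes mark the CD4 arrays with letters A and C as run again, and with both left out, 1 probe set passed.

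Itgae passed in 21 of 23 alternative fits, Klrd1 in 18, Fasl in 13, Ccr8 in 10 and Cxcl10 in 8. In the fit to the 6 fresh T-cell arrays alone none of them passed, with adjusted p from 0.083 for Itgae to 0.306 for Ccr8. Each of the 5 kept its direction in all 23.

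**Figure D5:**
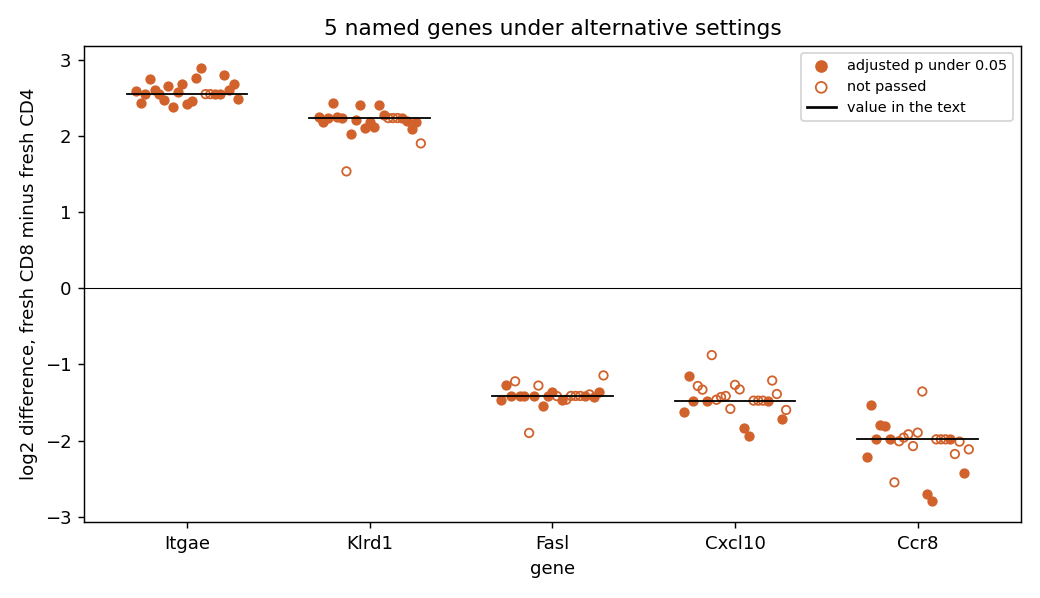
Difference between fresh CD8 and fresh CD4 cells (log2, vertical axis) of the 5 named genes that passed, in 23 alternative fits each. Filled points passed, open points did not, and the black line is the value given in the text; Itgae stays between 2.38 and 2.90, and Cxcl10 spreads from -1.94 to -0.88.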

How the data were processed

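RNA of spleen lymphocytes was hybridised to a custom Affymetrix glycan array, 1 array per sample. The values the authors deposited are linear intensities, 1 for each probe set on each array, from 1 to 54011.4 over the tested probe sets. Which program made them, and with what scaling, is not given in the sources used here. No detection call was used, and precision is limited by the number of arrays. Groups and letters were read from titles, and notes in some experiment files hold another letter than the title. In the titles a number follows the letter, and for letters A, B and C it runs on from the CD4 to the CD8 arrays. What a letter or number stands for is not given, and nothing says whether a group's arrays came from separate mice. The p-values therefore measure the spread between arrays alone, possibly a technical one. That spread is shared over the 10 groups and is not that of the 6 fresh T-cell arrays by themselves. Any stimulus of the cultured T cells beyond the cytokines is not given either.

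Left out were 6 control probe sets. RefSeq accessions named 449 of the 746 tested probe sets and a synonym 1 more, and 296 stay unnamed. Suffixes of 223 (_s_at) and 16 (_x_at) probe sets mark probes that related transcripts may share. A gene is represented by its probe set with the highest mean (75 genes have several). On log2(signal + 16), 1 model of 10 group means was fitted to the 30 arrays with limma 3.58.1 (lmFit, eBayes) in R 4.3.3. Tests were two-sided on 20 residual degrees of freedom, with Benjamini-Hochberg adjustment over 746 probe sets. Cultured groups were averaged per subset, and the interaction is the fresh minus the cultured difference. The fit was tested on simulated data, with 50 probe sets changed by each size among 746, and made 1 false call.

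Genes are named by a rule: genes that passed and are brighter than the median of all probe sets (up to 15 each way), a list of genes fixed by name, up to 3 members of each list with the largest differences, and up to 2 unnamed probe sets each way. Other list members named beside them, and genes with several probe sets, were chosen after their values were seen. Results for 1 gene under this rule are not reported here. The comparison, the 33 lists (29 with at least 3 measured genes) and the rule were chosen with earlier results of these data known. Alternatives were another pseudocount, a filter on dim probe sets, other scalings, batch terms, a 3'/5' covariate, fewer arrays and 1 value per gene. Figures were drawn with matplotlib 3.10.9 in Python 3.11.15, after numpy 2.4.6 and pandas 2.3.3.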

Additional observations from a re-analysis of the deposited data

Results flagged for a closer look

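By the interaction test, the subset difference in fresh cells differed from that in cultured cells for 13 of the probe sets named or called here. Over all probe sets, 30 of 746 (4.02%) passed that test. Many of those named were picked for a large fresh difference, which is part of the interaction, so the 13 are not a result about the named set. The change is the fresh minus the cultured CD8-CD4 difference, in log2. It was 2.65 for Itgae, 3.20 for Ccl5, 2.94 for St8sia1, 2.41 for Il4 and -1.68 for Fasl, each of which passed without any 1 of the 6 fresh T-cell arrays. Among unnamed probe sets it was -3.23 for AF054581_at and -2.38 for another that passed in fresh cells.

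For 6 further genes the change rested on single arrays. It was -2.69 for Siglece, whose call was lost without the CD4 array with letter B (limma adjusted p = 0.064) or C (0.0769) or the CD8 array with letter B (0.133) or C (0.0917). It was 1.40 for the glycolysis gene Aldoa, 1.11 for the glycolysis gene Gpi1, 2.14 for Cmah and 1.33 for the adhesion gene Icam2. Without the CD4 array with letter C, which had the high 3'/5' ratios, these were 0.81 for Aldoa, 0.67 for Gpi1, 1.55 for Cmah and 0.89 for Icam2, with limma adjusted p from 0.169 to 0.243. Their calls were also lost without the CD8 array with letter A (limma adjusted p = 0.147 for Aldoa, 0.106 for Gpi1, 0.184 for Cmah and 0.0889 for Icam2) or B (0.169, 0.168, 0.124 and 0.138), and that of Gpi1 without the CD8 array with letter C (0.0509). It was -2.15 for Extl1, a heparan sulfate enzyme gene, whose call was lost without the CD4 array with letter B (limma adjusted p = 0.124) or the CD8 array with letter B (0.15) or C (0.0613). The part of RNA quality in these changes was not tested.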

How the results depend on the processing

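Over 23 alternative fits, all values of the 12 probe sets kept their direction, 273 values in all, of which 154 passed. Of 1724 values of named probe sets that had not passed, 28 passed, and 69 changed sign. No call was reversed. The count of 12 (4 higher, 8 lower) became 7 (4 and 3) with median centring, 3 (1 and 2) with scan day as a block, 0 in the fit to the 6 fresh T-cell arrays and 1 (1 and 0) with the 9 fresh arrays or without the CD4 arrays noted as run again. When the 3'/5' ratio was a covariate 2 were higher. Leaving out each of the 6 arrays in turn gave 5 to 13, with 2 to 7 higher and 3 to 11 lower; 5 came without the CD8 array with letter B, and 7 without the CD4 array with letter B or C. Cultured calls, 72, were 46 with scan day as a block, with 29 lower, and 30 were lower with scan period as a block. They were 67 to 76 when each fresh array was left out. Interaction calls, 30 (15 each way), were 18 (9 each way) with median centring, 8 (3 higher, 5 lower) with scan day, 14 (7 each way) with scan period as a block or without both fresh arrays of letter C, and 6 (3 each way) without the arrays run again. With the 3'/5' covariate 9 were higher, with pseudocount 1 there were 8, and each array left out in turn gave 14 to 34, with 7 to 19 higher and 7 to 15 lower. The counts were 14 without the CD8 array with letter B, 19 without the CD8 array with letter A and 20 without the CD4 array with letter C. The cause of these changes was not tested, except that fits with fewer arrays have fewer degrees of freedom.

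The log2 difference of the 3'/5' ratio was -0.78 for beta-actin, from -1.26 to 0.15 as each array was left out, with 0.15 without the CD4 array with letter C. For Gapdh it was -0.80, from -1.15 to -0.22. The array weight of that CD4 array was 0.279, the lowest of the 6, and with array weights 12 probe sets passed. With the title letter as a replicate block 15 probe sets passed (6 higher, 9 lower), and 0 did in the fit to the 6 arrays with that block (87 at an unadjusted p under 0.05). Deviations from the group means correlated at 0.20, -0.02 and 0.36 for letters A, B and C, so not every pair was above 0.1 and the letters were not taken to pair the arrays. The CD4 arrays with letters A and B and the CD8 array with letter B did not correlate best with their own letter. The CD8 array with letter A and both arrays with letter C did. These alternatives were in part chosen after seeing the data: scan period, chip lot, array weights and the arrays noted as run again.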

Other observations

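Among lists not described above, none of 18 TGF-beta family genes passed with limma (1 at an unadjusted p under 0.05), and their median difference was -0.41, with 13 below 0. That median was -0.17 without the CD4 array with letter C. Bmp7, a bone morphogenetic protein gene, had signals of 203.7, 252.1 and 148.4 in CD4 and 15.4, 102.4 and 35.2 in CD8 cells. These groups did not overlap, and the difference of -1.89 ± 0.51 did not pass (SE, n = 3 against 3; limma adjusted p = 0.0584). Il15, a cytokine that sustains memory CD8 and NK cells, was likewise lower on every CD8 array, at a mean signal of 170.8 ± 32.8 against 55.2 ± 25.3 (SD, n = 3; -1.45 ± 0.49, limma adjusted p = 0.138). Of 19 interleukin and interferon genes none passed with limma, 2 had an unadjusted p under 0.05, and the median was -0.17.

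On the higher side, Flt3, a receptor of early progenitors and dendritic-cell precursors, was at 14.7, 59.5 and 71.2 in CD4 and 194.7, 180.3 and 231.9 in CD8 cells (1.89 ± 0.69, limma adjusted p = 0.189). Il18rap, a chain of the IL-18 receptor, was at 48.9, 148.3 and 63.0 against 169.8, 195.9 and 240.5 (1.19 ± 0.58, limma adjusted p = 0.422). Gusb, the lysosomal beta-glucuronidase, was at 418.7, 493.8 and 191.2 against 1056.1, 684.0 and 557.7 (1.08 ± 0.35, limma adjusted p = 0.127), the only 1 of 16 lysosomal genes with an unadjusted p under 0.05. The groups of these 3 genes did not overlap. Without the CD4 array with letter C the differences were 2.17 for Flt3, 1.07 for Il18rap and 0.68 for Gusb. Over all 746 probe sets 16 had an adjusted p between 0.05 and 0.1, of which 7 were higher and 9 lower in CD8 cells.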
